A study of Macaca mulatta and Mus musculus and Rattus norvegicus with 12 samples.

Results

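The Iroquois homeobox genes IRX1, IRX2, IRX3, IRX4, IRX5 and IRX6 were examined in bone RNA sequencing of the skull vault (calvaria) and the tibia from mouse, rat and rhesus macaque. The 6 members were found by gene symbol among 38599 mouse, 35259 rat and 28642 macaque entries. All 6 had a row in mouse and in rat, and 5 of 6 had one in macaque, where no row carried the symbol IRX2. The macaque symbol IRX5 stood on 2 rows, and the one described as IRX-2-like was kept apart from IRX5. The family was selected on its differences between calvaria and tibia in these libraries, which were already known. Its site differences are therefore descriptions without a test.

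Mouse samples came from C57BL6 females aged 4 months, with 2 libraries of calvaria (M4 and M8) and 2 of tibia (M5 and M7), each pooled from 3 animals. Rat samples came from Wistar females aged 6 months, with 1 calvaria library (R1) and 1 tibia library (R3), each pooled from 2 animals. Macaque samples came from females, with 3 libraries of calvaria (G1, G3 and T1) and 3 of tibia (G2, G4 and T2). The study's methods describe these as 3 pairs, each pair from 1 animal. The macaque age is given as 4 to 6, in months in the labels and in years in the study's methods. The study's methods describe the libraries of each species as calvaria and tibia pairs, but which libraries form a pair is not given, so the main fits are unpaired. No animal was treated or genetically altered according to these sources. According to the study's methods, periosteum, surface cells and, in rodent tibias, marrow were removed before the bone was pulverised. The material was whole bone enriched in osteocytes and not sorted cells, and markers of marrow cells were still read in every library. Rodent and macaque libraries were sequenced on different lanes, and species and lane cannot be told apart.

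IRX genes encode transcription factors of the TALE homeobox class, whose DNA-binding homeodomain carries a loop extension of a few residues. They lie in a pair of genomic clusters, one with IRX1, IRX2 and IRX4 and one with IRX3, IRX5 and IRX6, and are known for dividing embryonic tissues into regions. IRX3 and IRX5 act together in the early hindlimb bud, and loss of IRX5 function in people causes a syndrome with craniofacial malformation and fragile bones.

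In the mouse GRCm38 assembly with GENCODE annotation, the first cluster spanned 1311.7 kb of chromosome 13. It held Irx1 at chr13:71957921-71963723 on the minus strand, Irx2 at chr13:72628820-72634198 and Irx4 at chr13:73260479-73269608, both on the plus strand. The second cluster spanned 882.4 kb of chromosome 8. It held Irx3 at chr8:91798525-91802067 on the minus strand, Irx5 at chr8:92357625-92376286 and Irx6 at chr8:92674288-92680956, both on the plus strand.

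The members resemble each other most in the homeobox, and the coding sequence around the third helix, which contacts DNA, is shown. The sequences are 48 bases of the mouse coding strand from the GENCODE transcripts, 5′ to 3′, and capitals mark bases that differ from the most frequent base of the family at that position.
IRX1: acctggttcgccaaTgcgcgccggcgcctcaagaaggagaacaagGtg
IRX2: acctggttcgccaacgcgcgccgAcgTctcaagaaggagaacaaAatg
IRX3: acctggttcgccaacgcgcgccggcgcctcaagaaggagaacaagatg
IRX4: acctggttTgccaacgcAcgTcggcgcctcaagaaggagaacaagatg
IRX5: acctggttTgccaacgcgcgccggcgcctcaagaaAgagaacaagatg
IRX6: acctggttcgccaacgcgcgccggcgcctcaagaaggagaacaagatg
IRX3 and IRX6 were identical over these bases, and the other members carried 2 or 3 differences each. Over the whole homeobox of 189 bases, pairs of members were 83.1% to 91.0% identical. At the level of the 63 encoded residues, IRX2 and IRX5 were 100% identical and IRX1 and IRX3 were 98.4% identical, while IRX3 and IRX5 were 90.5% identical. The longest exact run shared by the transcripts of 2 members was 88 bases, between IRX3 and IRX6. Runs of 65 bases between IRX2 and IRX5 and of 50 bases between IRX3 and IRX5 followed. Where these runs lie in the transcripts was not determined, and each of them is longer than the printed stretch. These runs were shorter than a sequencing read as the study's methods give it, and a small part of the reads of the rarer member of such a pair could still be uncertain. The antisense gene IRX3OS overlapped 124 of 2762 exonic bases of mouse Irx3 (4.5%), and counting did not use strand.

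Reads assigned to genes ranged from 13934813 to 16826535 per mouse library, from 12233256 to 14255423 per rat library and from 7951585 to 10342459 per macaque library. Levels are counts per 1000000 reads on genes (CPM), scaled with TMM factors in mouse and macaque. A count of 0 allows a level of up to 3 reads in that library. In pooled bone RNA, fewer cells of a type and less RNA per cell cannot be told apart.

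IRX3 and IRX5 made up nearly all Iroquois RNA at both sites of all 3 species. Per kilobase of exon, these 2 genes held 94.9% to 99.1% of the family's summed level over the 12 libraries. IRX5 had a higher mean CPM than 96.1% of the genes tested in mouse, 94.8% in rat and 95.04% in macaque. IRX3 exceeded 83.5%, 90.3% and 93.5%, respectively. IRX6, IRX1 and IRX2 were present at low levels, and IRX4, known as a ventricular factor of the heart, gave 0 reads in every mouse and macaque library and 1 read in the rat calvaria library.

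**Figure D1:**
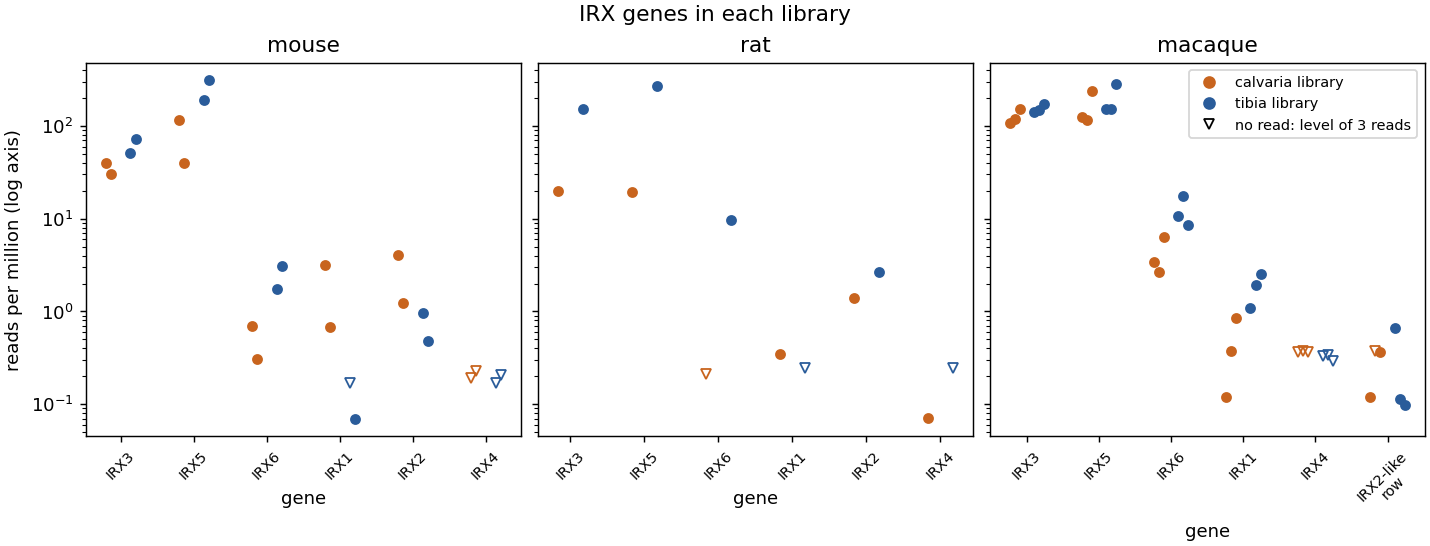
CPM (log axis) of each IRX gene in every library, with 1 panel per species, orange points for calvaria, blue points for tibia and open triangles at the level of 3 reads where a library had 0 reads. In mouse and rat the tibia points of IRX3, IRX5 and IRX6 lie above the calvaria points, in macaque those of IRX3 and IRX5 overlap, and mouse IRX1 is higher in calvaria while macaque IRX1 is higher in tibia.

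IRX5 was higher in tibia than in calvaria in both rodents. In mouse calvaria, 1804 and 527 reads were found in M4 and M8, or 115.4 and 40.2 CPM, and in mouse tibia M5 and M7 held 3416 and 4574 reads, or 193.0 and 312.9 CPM. The sites did not overlap, and the 2 calvaria libraries differed 2.87-fold from each other. M8, the lower one, also had lower summed osteoblast markers than M4 (11165 against 24824 CPM) and higher erythroid markers (2276 against 800.8 CPM), whose part in this was not tested. The means were 77.8 ± 53.2 CPM in calvaria and 253.0 ± 84.7 CPM in tibia (SD, n = 2 each), and the fitted log2 fold change of calvaria over tibia was -1.70 (SE 0.410). The rat calvaria library held 274 IRX5 reads (19.2 CPM) and the tibia library 3308 reads (270.4 CPM), a 14.1-fold higher level in tibia (95% exact interval 12.4 to 16.0, counting error only). With 1 library per site, the rat difference has no replicate check.

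In macaque, IRX5 levels overlapped between the sites. In calvaria, G1, G3 and T1 had 125.4, 116.5 and 236.8 CPM, while in tibia G2, G4 and T2 had 150.7, 151.0 and 282.1 CPM. The libraries labelled T were highest at both sites, and within the G and the T libraries tibia exceeded calvaria 1.25-fold and 1.19-fold. Osteoblast markers were also highest in T1 and T2, at a summed 44127 and 60084 CPM against 16846 to 24896 CPM in the G libraries, and their part in the IRX5 levels was not tested. The log2 fold change was -0.29 (SE 0.229, 95% interval -0.74 to 0.16), and it became 0.09 without T2 and -0.69 without T1.

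IRX3, the partner of IRX5 in limb patterning, showed the same order with a smaller difference in mouse. Its levels were 39.4 and 30.3 CPM in M4 and M8 against 51.7 and 73.2 CPM in M5 and M7. The sites did not overlap, and the log2 fold change was -0.84 (SE 0.280). The rat calvaria library held 287 reads (20.1 CPM) and the rat tibia library 1872 reads (153.0 CPM), a 7.60-fold higher level in tibia (95% exact interval 6.71 to 8.64, counting error only). In macaque, G1, G3 and T1 had 107.4, 118.8 and 154.1 CPM and G2, G4 and T2 had 143.0, 147.8 and 171.9 CPM, so that calvaria library T1 lay above tibia libraries G2 and G4. The macaque log2 fold change was -0.28 (SE 0.185, 95% interval -0.65 to 0.08).

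The macaque estimates of IRX3 and IRX5 depended on the scaling. Without TMM factors the median log2 fold change of all macaque genes moved from 0.03 to -0.18, and those of IRX3 and IRX5 became -0.49 and -0.48, past the calling threshold. Of all macaque calls, 3118 of 4499 were then higher in tibia, in place of 1781 of 3724.

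IRX6, the third gene of the chromosome 8 cluster and known from retinal interneurons, was the member with a tibia excess in every species and no overlap in mouse or macaque. Mouse calvaria held 11 and 4 reads (0.704 and 0.305 CPM in M4 and M8) and tibia 31 and 45 reads (1.75 and 3.08 CPM in M5 and M7), with a log2 fold change of -2.22 (SE 0.770). The rat libraries held 0 reads in calvaria and 120 reads (9.81 CPM) in tibia, at least 46.6-fold higher in tibia when calvaria is set to 3 reads. Macaque calvaria had 3.38, 2.63 and 6.42 CPM in G1, G3 and T1, and tibia had 10.8, 17.7 and 8.64 CPM in G2, G4 and T2. All macaque tibia libraries thus lay above all calvaria libraries, with means of 12.4 ± 4.72 and 4.14 ± 2.01 CPM (SD, n = 3 each) and a log2 fold change of -1.57 (SE 0.381). The tibia excess was 4.75-fold within the G libraries and 1.35-fold within the T libraries.

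IRX1, of the chromosome 13 cluster in mouse and known from lung, heart and digit development, had opposite orders in mouse and macaque. In mouse, M4 and M8 held 50 and 9 reads (3.20 and 0.686 CPM), M5 held 0 and M7 held 1 (0.0684 CPM). Calvaria exceeded tibia 66.3-fold in pooled counts, with a 95% exact interval of 11.4 to 2663 that covers counting error only, and the log2 fold change was 5.63 (SE 1.34). In macaque, G1, G3 and T1 held 1, 3 and 7 reads (0.121, 0.376 and 0.848 CPM) and G2, G4 and T2 held 10, 17 and 26 reads (1.09, 1.94 and 2.52 CPM). The macaque sites did not overlap either, with tibia higher and a log2 fold change of -2.02 (SE 0.850). The rat calvaria library held 5 IRX1 reads and the tibia library 0, at least 1.43-fold higher in calvaria with tibia set to 3 reads. Apart from M4, no library of any species held more than 26 IRX1 reads, so the depth leaves these levels uncertain.

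IRX2, which lies next to IRX1 and shares its homeodomain residues with IRX5, was higher in mouse calvaria and not in rat calvaria. Mouse levels were 4.10 and 1.22 CPM in M4 and M8 and 0.961 and 0.479 CPM in M5 and M7, without overlap, and the log2 fold change was 1.87 (SE 0.767). The rat libraries held 20 reads (1.40 CPM) in calvaria and 33 reads (2.70 CPM) in tibia, 1.92-fold higher in tibia (95% exact interval 1.07 to 3.54, counting error only). The macaque row described as IRX-2-like held 0 to 3 reads per calvaria library and 1 to 6 per tibia library, which overlap. A further macaque row, named as the divergent transcript IRX2-DT by RefSeq (T2T-MMU8v2.0 names), held 2, 13 and 17 reads in G1, G3 and T1 and 27, 20 and 28 reads in G2, G4 and T2. Its tibia counts lay above its calvaria counts, as did those of macaque IRX1.

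**Figure D2:**
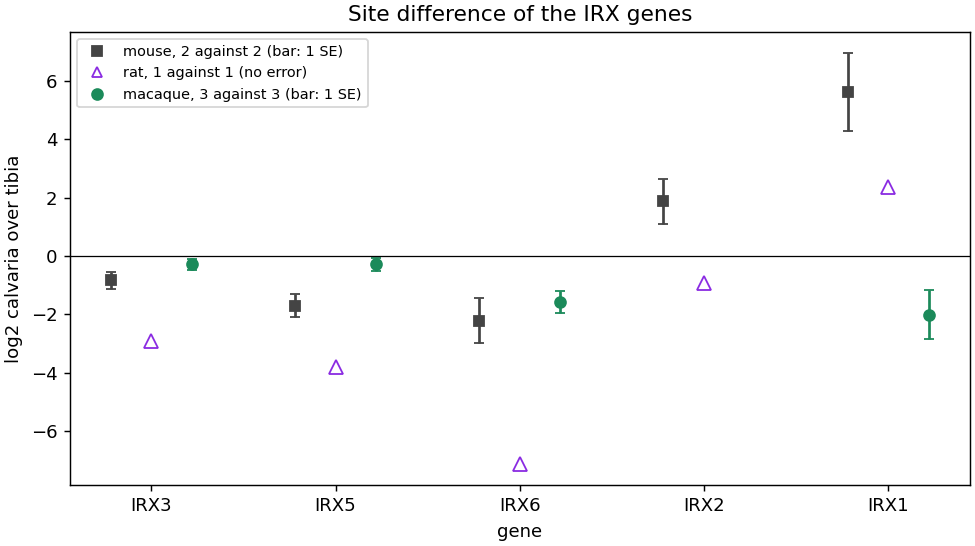
Log2 of calvaria over tibia for each IRX gene, with squares for mouse (n = 2 per site), circles for macaque (n = 3 per site), bars of 1 SE, and open triangles for rat (1 library per site, no error). IRX3, IRX5 and IRX6 lie below 0, meaning higher in tibia, in all 3 species, and IRX1 lies at 5.63 in mouse, 2.36 in rat and -2.02 in macaque.

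The number of members past the thresholds has to be read beside that of all genes. At a Benjamini-Hochberg adjusted p under 0.2 and a fold change over 1.1 in edgeR's quasi-likelihood test, 2 of 5 members with reads were called in mouse, IRX1 in the direction of calvaria and IRX5 in that of tibia. With assumed pairs as a block in the fit neither was called, at log2 fold changes of 5.38 and -1.85. The study lists IRX6 among the genes that differed between the sites in all 3 species. Mouse IRX6 was not called in the main fit here (edgeR adjusted p = 0.331), so the mouse calls are not the same as the study's. It was called with edgeR's likelihood ratio test (adjusted p = 0.176), where 739 of 22339 genes were called. Of all 22339 mouse genes tested, 2.28% were called, 0.712% towards calvaria and 1.57% towards tibia. In macaque 2 of 4 members were called, IRX1 and IRX6, both higher in tibia, against 19.7% of 18895 genes (10.3% towards calvaria and 9.43% towards tibia). In rat 4 of 6 members had a log2 ratio past 2 after 1 read was added to each count. They were IRX3 (-2.92), IRX5 (-3.81) and IRX6 (-7.14) on the tibia side and IRX1 (2.36) on the calvaria side, against 9.69% of 19234 genes (1.55% towards calvaria and 8.14% towards tibia). The libraries of the sites did not overlap for 5 of 5 members in mouse, where this held for 35.7% of genes, and for 2 of 4 in macaque, where it held for 24.9%. The median log2 fold change of the members was -0.84 in mouse and -0.93 in macaque, beside 0.05 and 0.03 over all genes. In rat it was -1.92 beside -0.29 over all genes. With TMM factors the rat median of all genes was -0.0047, the calls split into 1087 towards tibia of 1588 in place of 1565 of 1864, and the log2 ratios of IRX3, IRX5 and IRX6 were -2.63, -3.52 and -6.85.

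Single libraries decided several of these calls. Mouse IRX1 was not called without M5 (log2 fold change 4.67), and its values ran from 4.10 without M4 to 7.92 without M7. Mouse IRX5 was not called without M7 (-1.31), and its values ran from -2.68 without M4 to -1.14 without M8. Mouse IRX3 and IRX6 were called without M4 (-1.07 and -2.97) and without M8 (-0.67 and -1.76), and mouse IRX2 was called without M8 (2.47) and had a log2 fold change of 0.71 without M4. Without M4 the fit called 7470 of 21689 mouse genes and without M8 3816 of 21732, in place of 510 of 22339, so these gained calls came with a general rise. Macaque IRX1 was not called without G1 (-1.57), G3 (-1.91), G4 (-1.98) or T2 (-1.72), and macaque IRX5 was called without T1. Macaque IRX6 was called whichever library was left out, with values from -2.03 to -1.22. No mouse member was called with genes limited to those with sufficient counts, and 3 of the 4 members tested then had an unadjusted p under 0.05. All mouse calls fell to 29 of 15402 genes in that setting, and the log2 fold change of IRX5 was -1.69.

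The difference in site effect between macaque and mouse was fitted in 1 model over the 10 libraries. It was called for 1 of 4 members, IRX1, against 5.22% of 8196 genes. The site effects in macaque minus mouse were 0.58 (SE 0.327) for IRX3, 1.43 (SE 0.660) for IRX5 and 0.67 (SE 0.802) for IRX6 on the log2 scale, none of which was called. The IRX5 difference was called without M4 (2.39) and without T2 (1.83).

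The order of the members by level per kilobase of exon was IRX5, IRX3, then the rest. In mouse tibia IRX5 had 105.3 ± 35.3 CPM per kb and IRX3 26.4 ± 6.43 (SD, n = 2), which differed by more than their spread. In mouse calvaria they had 32.4 ± 22.1 and 14.8 ± 2.72 CPM per kb, which did not. Within each calvaria library IRX5 still exceeded IRX3, 2.88-fold in M4 and 1.30-fold in M8. Of the remaining members in mouse calvaria, IRX2 (1.08 ± 0.825) and IRX1 (0.942 ± 0.862) were within each other's spread. IRX6 (0.1999 ± 0.112) lay below both in each library, at 0.279 and 0.121 CPM per kb in M4 and M8. In these libraries IRX2 had 1.66 and 0.494 CPM per kb and IRX1 had 1.55 and 0.333. In mouse tibia IRX6 came next with 0.957 ± 0.372, followed by IRX2 with 0.292 ± 0.138 and IRX1 with 0.0166 ± 0.0235 CPM per kb.

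In macaque the 2 leading genes were close. IRX5 had 77.5 ± 32.5 CPM per kb in calvaria and 94.5 ± 36.8 in tibia, and IRX3 had 64.2 ± 12.3 and 78.1 ± 7.84 (SD, n = 3), so that neither site separated them. IRX6 (1.33 ± 0.644 and 3.97 ± 1.51) and IRX1 (0.240 ± 0.197 and 0.991 ± 0.385) followed in that order at both sites. In rat, IRX5 and IRX3 had 11.98 and 7.71 CPM per kb in calvaria and 168.5 and 58.6 in tibia, and IRX6 had 2.93 in tibia.

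The ratio of IRX5 to IRX3 per kilobase varied with library in mouse and rat. It was 2.88 and 1.30 in mouse calvaria (M4 and M8), 3.67 and 4.204 in mouse tibia (M5 and M7), 1.55 in rat calvaria and 2.87 in rat tibia. In the macaque libraries it lay between 0.941 and 1.57, with the T libraries at 1.47 (T1) and 1.57 (T2), above the 4 G libraries. The macaque ratio therefore followed the letter of the library label and not the site.

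The share of family reads from the IRX1, IRX2 and IRX4 cluster also differed between libraries. It was 4.48% (95% Wilson interval 3.74 to 5.35) in M4 and 2.62% (1.78 to 3.84) in M8, and 0.388% (0.243 to 0.621) in M5 and 0.140% (0.0712 to 0.277) in M7. Rat calvaria had 4.43% (3.04 to 6.41) and rat tibia 0.619% (0.441 to 0.868). In mouse the summed CPM of this cluster was also higher in calvaria (7.29 and 1.91 against 0.961 and 0.547). In rat it was not (1.82 CPM in calvaria and 2.70 CPM in tibia), and the smaller tibia share there went with the higher IRX3 and IRX5 levels. In macaque, with the IRX-2-like row counted in this cluster, the shares were 0.102% to 0.304% in calvaria and 0.563% to 0.645% in tibia. The intervals cover counting error only.

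Across the 4 mouse and 6 macaque libraries, IRX3 and IRX5 varied together. With each species' mean taken out of log2(CPM + 1), IRX5 had the highest Pearson r with IRX3 among 6055 genes with a mean of at least 1 CPM in both species (r = 0.942 over 10 libraries). The next for IRX3 were TNFRSF11B (0.940), which encodes the RANKL decoy receptor osteoprotegerin, PRR15 (0.932), SEMA5A (0.932), a semaphorin, and FRMD3 (0.928). For IRX5 the leading genes were SDC3 (0.958), a heparan sulfate proteoglycan, BHLHE40 (0.956), a transcriptional repressor of the circadian clock, TM9SF2 (0.952), SMAD9 (0.946), a transducer of BMP signals, and IRX3. These points share library, site and depth, and the coefficients are descriptions.

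IRX6 followed a partly different course. The genes most like it were SCN7A (0.957), a sodium channel gene, CHIC1 (0.948), ATP2B1 (0.948), a plasma membrane calcium pump, WDR19 (0.943), part of the ciliary transport machinery, and RHOBTB1 (0.943). The r of IRX6 was 0.762 with IRX3 and 0.598 with IRX5. Within mouse these were 0.995 and 0.955, and within macaque 0.698 and 0.368. In macaque IRX6 was highest in G4, whereas IRX3 and IRX5 were highest in T2. IRX1 did not reach a mean of 1 CPM in both species and IRX2 had no macaque row, so they were not ranked.

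**Figure D3:**
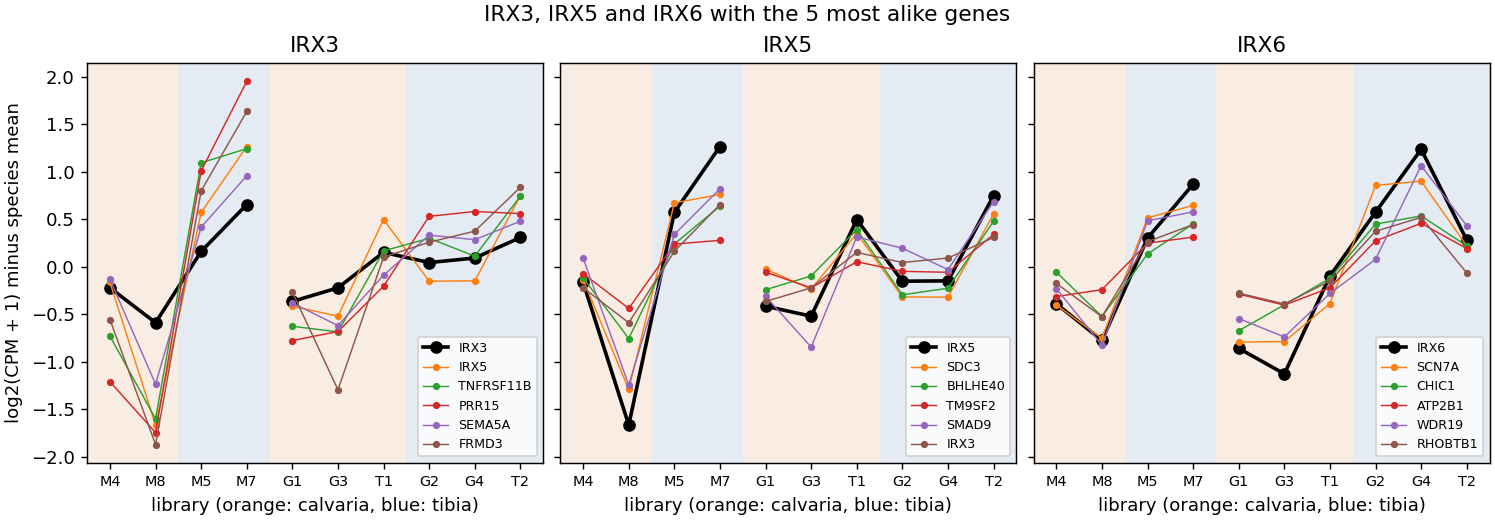
Log2(CPM + 1) minus the species mean in the 4 mouse and 6 macaque libraries for IRX3, IRX5 and IRX6 (thick black lines), each with the 5 genes of highest Pearson r (thin lines), on orange ground for calvaria and blue for tibia. Lines only join the values of 1 gene. IRX5 is lowest in M8 and highest in M7, and among macaque libraries IRX3 and IRX5 peak in T2 and IRX6 in G4.

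Other TALE homeobox genes encode partners and relatives of the IRX proteins, such as the MEIS and PBX cofactors. Of 12 such genes, 12 were tested in mouse and 1 was called, beside 2.28% of all mouse genes. In macaque 5 were tested under their own symbol, 10 when rows with a locus number were named through RefSeq, and 1 was called either way, beside 19.7% of all macaque genes. This was MEIS2, a cofactor active in limb and cranial neural crest development, which was higher in calvaria. Its levels were 3.20 to 11.8 CPM in mouse calvaria and 0.961 to 1.23 CPM in mouse tibia, with a log2 fold change of 2.77 (SE 0.620, edgeR adjusted p = 0.0537). In macaque they were 7.88 to 10.7 CPM in calvaria and 2.84 to 5.82 CPM in tibia, with a log2 fold change of 1.11 (SE 0.375, edgeR adjusted p = 0.0503). In rat 1 of 12 had a log2 ratio past 2, beside 9.69% of all genes, again MEIS2 (2.17). Its rat levels were low, at 1.40 CPM in calvaria and 0.245 CPM in tibia, the level of 3 reads. MEIS2 thus lay on the calvaria side in all 3 species, opposite to IRX3, IRX5 and IRX6. The median log2 fold change of this list was 0.11 in mouse and 0.28 in macaque, or -0.0012 with the RefSeq names.

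Hedgehog signalling and limb patterning genes, with which IRX3 and IRX5 act in the hindlimb bud, were described from a list of 18 genes. In mouse 2 of 16 tested were called, beside 2.28% of all genes. ALX4, a homeobox gene of the skull vault and anterior limb, was higher in calvaria (log2 fold change 2.18, SE 0.465, edgeR adjusted p = 0.0435). TBX4, which marks the hindlimb, was higher in tibia, with 0 and 0.152 CPM in calvaria and 3.15 to 3.33 CPM in tibia (log2 fold change -5.36, SE 0.996, edgeR adjusted p = 0.0186). The list's median was -0.26. In macaque 4 of 9 tested were called, all higher in tibia, beside 9.43% of all genes called in that direction, and the median was -0.64. With the RefSeq names 6 of 14 were called, all higher in tibia, with a median of -0.78.

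The genes called under their own symbol were GLI1, GLI3, SMO and SUFU. GLI1, a transcriptional target and effector of the pathway, had 1.33 to 2.05 CPM in calvaria and 5.03 to 12.9 CPM in tibia (log2 fold change -2.25, SE 0.463, edgeR adjusted p = 0.000622). GLI3, the main transcriptional repressor of the pathway, had a log2 fold change of -0.96 (edgeR adjusted p = 0.0440), the signal transducer SMO -0.58 (adjusted p = 0.172) and the inhibitor SUFU -0.64 (adjusted p = 0.116). The Hedgehog targets PTCH1 and HHIP were not called, at log2 fold changes of 0.04 (SE 0.635) and 0.48 (SE 1.502) in macaque. The 2 genes added by the RefSeq names were FGF10, a limb bud growth factor (-2.91, SE 0.538, edgeR adjusted p = 0.000143), and HAND2, a limb bud transcription factor (-5.61, SE 2.10, edgeR adjusted p = 0.0863) at 0 CPM in calvaria and 0 to 1.26 CPM in tibia. In mouse, GLI1 levels overlapped (2.97 to 17.8 CPM in calvaria and 4.17 to 6.72 CPM in tibia). In rat, 4 of 14 genes had a ratio past 2, beside 9.69% of all genes. GLI1 (-2.94), the ligand IHH (-5.57) and TBX4 (-2.81) lay on the tibia side and GLI2 (2.36) on the calvaria side. TBX4 was at 0 CPM in rat calvaria and 0.409 CPM in tibia, and GLI2 at 0.351 and 0 CPM. Both were near the level of 3 reads (0.210 CPM in R1 and 0.245 CPM in R3).

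Genes next to the clusters were called at shares near those of all genes. Within 1 Mb of either cluster the mouse annotation held 117 genes, of which 50 had a row and 38 were tested. In mouse 1 was called, beside 2.28% of all genes. It was the carboxylesterase gene CES1F, at 0 and 0.0640 CPM in calvaria and 1.16 to 2.43 CPM in tibia (log2 fold change -5.41, edgeR adjusted p = 0.0661). In macaque 2 of 14 were called, beside 19.7% of all genes. RPGRIP1L, a ciliary gene, was higher in tibia (log2 fold change -1.61, SE 0.456, edgeR adjusted p = 0.0150), and CLPTM1L was called in the direction of calvaria (0.44, edgeR adjusted p = 0.163) with overlapping libraries. FTO, whose introns hold enhancers that act on IRX3 and IRX5, had log2 fold changes of 0.01 in mouse and -0.14 in macaque and a log2 ratio of -0.39 in rat, none past the threshold. The medians were 0.05 in mouse and -0.13 in macaque.

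IRX3OS, transcribed from the opposite strand of Irx3, held 42 and 34 reads in mouse calvaria (M4 and M8) and 57 and 34 in mouse tibia (M5 and M7). Its levels of 2.69 and 2.59 CPM against 3.22 and 2.33 CPM overlapped, unlike those of IRX3. Its log2 fold change was -0.07 (SE 0.536).

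Cell type markers moved with the site beside the IRX genes. Their calls stand beside 2.28% of all genes called in mouse and 19.7% in macaque, and 9.69% past the ratio in rat. The summed level of 6 osteocyte markers was 1041 to 1847 CPM in mouse calvaria and 7623 to 10369 CPM in mouse tibia, and 4 of 6 were called, all higher in tibia (SOST, DMP1, MEPE and PHEX). In rat the sums were 500.2 and 7242 CPM, 4 of 5 tested markers had a ratio past 2 towards tibia, FGF23 was at 0 and SOST was at 0.351 and 1.23 CPM. In macaque, with rows named through RefSeq, the sums were 4917 to 5779 CPM in calvaria and 7778 to 17530 CPM in tibia, and 2 of 6 were called, both higher in tibia. These were MEPE (log2 fold change -1.40) and SOST, whose row is described as sclerostin-like (-1.53), at 91.0 to 266.9 CPM in calvaria and 489.0 to 588.1 CPM in tibia. MEPE made up most of the macaque sums, at 4609 to 5341 CPM in calvaria and 7099 to 16671.5 CPM in tibia. The study lists macaque SOST at a higher level than MEPE, unlike the sclerostin-like row here, and the reason was not tested. DMP1 (-0.21), PDPN (-0.35), FGF23 (-1.37) and PHEX (0.21) were not called in macaque. Rodent tibia thus had higher levels of both osteocyte markers and IRX3, IRX5 and IRX6, and the part of the markers in the IRX differences was not tested.

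Other lists also moved, and their calls stand beside the same shares of all genes (2.28% in mouse, 19.7% in macaque and 9.69% in rat). Chondrocyte markers summed to 27.9 to 85.2 CPM in mouse calvaria and 547.4 to 654.9 CPM in mouse tibia. Of these 4 of 6 were called, all higher in tibia, and MATN3 was at 0 in both mouse calvaria libraries. COL2A1 alone held 476.3 to 592.1 CPM in mouse tibia, and COL9A1 overlapped. In macaque, with rows named through RefSeq, chondrocyte sums were 10.6 to 12.4 CPM in calvaria and 5.82 to 10.3 CPM in tibia. Only COL2A1 was called there, higher in calvaria (log2 fold change 1.78). Adipocyte markers summed to 197.0 to 512.2 CPM in mouse calvaria and 1026 to 1326 CPM in tibia, with 5 of 6 called. In rat, skeletal muscle markers summed to 6.59 CPM in calvaria and 766.0 CPM in tibia, all 6 past the ratio towards tibia and CKM at 0 in calvaria. Mouse muscle markers summed to 1060 to 1327 CPM in calvaria and 327.5 to 1605 CPM in tibia, and 0 of 6 were called in edgeR. MYH4 of that list did not overlap between the sites (log2 fold change -2.25, SE 0.735). Leukocyte and marrow markers summed to 2003 to 3301 CPM in mouse calvaria and 1626 to 1912 CPM in mouse tibia. In rat they summed to 1671 CPM in calvaria and 1664 CPM in tibia. Erythroid markers summed to 800.8 to 2276 CPM in mouse calvaria and 1118 to 1249 CPM in mouse tibia. The rat erythroid sums were 62109 CPM in calvaria and 35592 CPM in tibia. Endothelial markers summed to 126.7 to 131.8 CPM in mouse calvaria and 181.7 to 190.7 CPM in tibia, with 2 of 6 called, CDH5 and PECAM1, both higher in tibia, and to 209.3 and 397.4 CPM in rat calvaria and tibia.

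In macaque, with rows named through RefSeq, 4 of 4 tested erythroid markers (24783 to 36154 CPM in calvaria against 6753 to 9724 in tibia), 4 of 4 leukocyte markers (1390 to 2382 against 441.4 to 794.0 CPM) and 4 of 5 adipocyte markers (2287 to 3064 against 788.1 to 1878 CPM) were called, all higher in calvaria. Over all macaque genes 10.3% were called towards calvaria and 9.43% towards tibia. Of 5 fibroblast and tendon markers (92.9 to 149.5 against 120.2 to 184.8 CPM), 2 were called, both higher in tibia. Of 6 osteoblast markers 2, SP7 and RUNX2, were called towards tibia, beside 9.43% of all genes. BGLAP (0.64), ALPL (0.47) and IBSP (0.43) had log2 fold changes towards calvaria and COL1A1 was at -0.06, none of them called. The median of the osteoblast list was 0.18, and its sums overlapped (24080 to 44127 CPM in calvaria and 16846 to 60084 CPM in tibia). The part of these lists in the IRX differences was not tested.

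**Figure D4:**
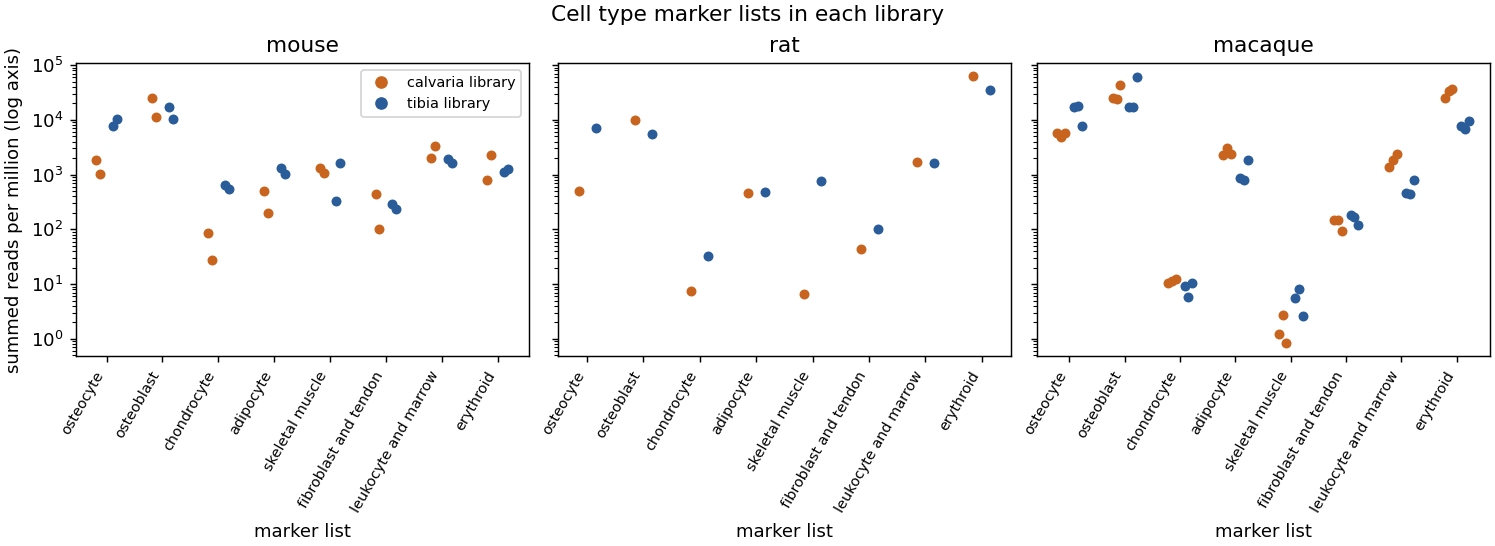
Summed CPM (log axis) of 8 marker lists in every library (macaque rows named through RefSeq), with 1 panel per species, orange points for calvaria and blue points for tibia. The osteocyte marker sum is higher in tibia in each species, at 7623 to 10369 CPM against 1041 to 1847 CPM in mouse, and in macaque it is mostly MEPE. Rat muscle markers are at 766.0 CPM in tibia against 6.59 CPM in calvaria.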

How the data were processed

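The IRX genes and the gene lists were chosen with earlier results of these data known. Poly(A)+ RNA of 12 bone libraries was sequenced. The authors mapped reads with HISAT2 (study's methods) while the submitters' processing notes list BWA 0.7.10-r789, HTSeq and edgeR 3.16.5. The builds were mm10, rn6 and MacaM. The deposited raw counts are reads per gene on merged exons, without strand. The deposited normalised signal column is the counts times 1 constant per library and was not used, nor were the deposited exonic length values (unit other) except to give levels per kilobase. There were 0 unmapped sample columns.

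Rows naming no gene (0.00261% to 0.06628% of reads) were left out, and rows of 1 symbol were summed except the macaque IRX-2-like row. Macaque rows with a locus number were also named through RefSeq (5939 of 17111 such rows). Symbols with at least 1 read were tested per species in edgeR 4.0.16 (R 4.3.3) with TMM factors (0.942 to 1.05 in mouse, 0.884 to 1.12 in macaque), estimateDisp and the quasi-likelihood test, without covariates. The common dispersion corresponded to a coefficient of variation of 0.348 (mouse) and 0.295 (macaque). Calls needed a Benjamini-Hochberg adjusted p under 0.2 over all symbols and a fold change over 1.1. SEs are the log2 fold change divided by the square root of F. Rat ratios had 1 read added. Named genes were the 6 members, list genes called without overlap between sites, and the 5 genes of highest r per member. CLPTM1L, FTO, PTCH1, HHIP, HAND2, MYH4, IRX3OS, IRX2-DT and the rat genes fall outside this rule and were chosen after their values were seen. The markers BGLAP, ALPL, IBSP, COL1A1, DMP1, PDPN, FGF23 and PHEX in macaque and COL9A1 in mouse were not called and also fall outside it. The fit was tested on simulated data. Libraries of a species other than macaque are pools, so p-values measure the spread between pools, and intervals on counts cover counting error only. Alternatives were other scaling, filters, tests, thresholds, blocks and libraries left out.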

Additional observations from a re-analysis of the deposited data

Results flagged for a closer look

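IRX1 was singled out because its site effect differed between mouse and macaque. The difference of the log2 fold changes, macaque minus mouse, was -7.52 (SE 1.67), past an adjusted p of 0.2 in edgeR's interaction test over 8196 genes. Both mouse calvaria libraries lay above the mouse tibia libraries, and all 3 macaque calvaria libraries lay below the macaque tibia libraries. The counts behind it were 59 and 1 reads in mouse calvaria and tibia and 11 and 53 reads in macaque. The gene was selected on these contrasts, so the value is a description. It was not called without M5 (-6.61) or without M7 (-9.36), and species and lane cannot be told apart.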

How the results depend on the processing

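In mouse, 2 IRX members, 1 TALE gene, 2 limb and Hedgehog genes and 1 neighbouring gene were called. These counts were 0, 0, 0 and 0 with filterByExpr, with symbols read in all 3 species and with genes read in every library, where calls over all genes fell from 510 of 22339 to 29 of 15402, 32 of 10536 and 14 of 16740 (with filterByExpr, 3, 1, 4 and 2 had an unadjusted p under 0.05). At an adjusted p under 0.05, 0 members, 0 TALE genes and 0 neighbours were called, beside 208 of 22339 genes. The likelihood ratio test called 3 members, IRX6 among them, and 4 limb genes, beside 739 of 22339 genes. With a replicate block for assumed pairs, 0 members and 0 TALE genes were called in mouse, where 5 and 1 had an unadjusted p under 0.05. All-gene calls were 295 of 22339 in that setting. Neither the labels nor the methods name which libraries are paired. The block left 2 members called in macaque, beside 4784 of 18895 genes.

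In macaque, 2 members, 1 TALE gene, 4 limb genes and 2 neighbours were called, beside 3724 of 18895 genes. Library size alone called 4 members, beside 4499 of 18895 genes. An adjusted p under 0.05 called 1 member, 0 TALE genes (1 at an unadjusted p under 0.05), 2 limb genes and 1 neighbour. All-gene calls were then 1978. An absolute log2 fold change over 1.1 left 1 limb gene and 1 neighbour, beside 1550 genes. The likelihood ratio and exact tests called 1 neighbour each, beside 3806 and 3105 genes.

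With each library left out, the mouse counts ranged from 1 to 5 members, 0 to 6 TALE genes, 1 to 10 limb genes and 0 to 11 neighbours, where all-gene calls rose to 7470 without M4 and 3816 without M8, and the macaque counts from 1 to 3, 0 to 1, 2 to 5 and 1 to 3. All-gene calls in macaque ran from 2301 without G3 to 4998 without T2. Leaving out a mouse library leaves a lone library that is assumed to vary like the others. The site effect that differed between species was found for 0 to 2 members, 0 without M5 or M7 and 2 without M4 or T2, where IRX5 was added. In rat, 3 to 4 members stayed past the ratio, and IRX1 was not past it with 5 reads added (0.78). The macaque direction turned for IRX5 without T2 and for the IRX-2-like row without G2, and with each library left out their log2 fold changes ranged from -0.69 to 0.0856 and from -2.01 to 0.56. Of the values for single members, 219 kept direction and side of the threshold, 18 lost the call and 11 gained it. The summed IRX5 rows in macaque and the rat library sizes over shared symbols were chosen after seeing the data. With 2 pools per mouse site and under 60 IRX1 reads in any group, small differences of IRX1, IRX2 and IRX6 were not detectable at this depth, and IRX4 could not be compared.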
